A study of Mus musculus with 6 samples.

Results

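TGF-beta and BMP signaling genes were examined in damaged hepatocytes (dHeps) of the mouse after culture with the solvent DMSO, with 3 compounds (3C) or with 5 compounds (5C). The 51 genes were taken by symbol from the 52323 genes of the deposited count table, by a rule that names the genes and sets no limit on their values, though earlier results of these data were known when they were chosen. They comprised 14 ligands, 5 latency and processing factors, 11 receptors, 7 antagonists, 8 Smads and 6 target genes. Of the 51 genes, 50 passed the filter on low counts and were tested among 19135 genes in all. The remaining gene, the type I receptor Bmpr1b, had no count in the 4 DMSO and 3C libraries and 0.0579 and 0.0578 CPM (counts relative to the total of the library) in the 5C libraries, under the floor of 3 fragments.

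The cells were isolated from livers injured by repeated CCl4, a hepatotoxin, in AAV-TBG-Cre:Rosa-LSL-tdTomato mice. In these animals a virus carries Cre under a hepatocyte promoter, and Cre switches on the red reporter. The injury, the genotype, the serum-free Hepatocyte Maintenance Medium and the harvest on day 16 were common to all groups, so that DMSO was a control for the compounds and not for the injury. Cells of the 3C group received CID755673 at 50 µM, GSK429286A, a kinase inhibitor, at 2 µM and ETC-1002 at 5 µM. Of these, CID755673 blocks protein kinase D, and ETC-1002, which the paper names as an AMPK activator, also blocks ATP citrate lyase. Cells of the 5C group also received forskolin at 2 µM, which activates adenylyl cyclase and so raises cyclic AMP, and salidroside, a glycoside of Rhodiola, at 5 µM. Each group had 2 libraries. The study's methods call its replicates biological in general, and the labels do not say whether these libraries came from separate mice or cultures. The p-values rest on the spread between libraries within groups, pooled over the 3 groups and in part over genes. Part of that spread may be technical.

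The libraries held 65916573 to 69245895 count units, and the largest exceeded the smallest by a factor of 1.05. All 10 hepatocyte markers, such as albumin (Alb), were detected in every library. Their summed level was 3517 to 3966 CPM in DMSO, 15968 to 16782 CPM in 3C and 16568 to 22520 CPM in 5C. Macrophage markers, 12 genes, summed to 11978 and 12905 CPM in the DMSO libraries, above the hepatocyte markers, to 4152 and 4166 CPM in 3C and to 2699 and 2803 CPM in 5C. Of these 12 genes, 10 fell and 1 rose against DMSO in each cocktail. The 12 stellate and fibroblast markers summed to 8079 to 9409 CPM in DMSO, 7214 to 7317 CPM in 3C and 11794 to 12755 CPM in 5C, and the sum was mostly collagen genes. Of the 12, 6 rose and 2 fell in 5C (median log2 fold change 0.43) and 6 rose and 4 fell in 3C (median 0.50), so that in 3C the sum and the median differed in sign. The 7 mesothelial markers summed to 979 to 1193, 1263 to 1409 and 2308 to 2412 CPM, and 6 rose in 5C and 2 in 3C. The 7 cholangiocyte markers summed to 2928 to 3418, 3591 to 3777 and 2423 to 2728 CPM, while 5 rose and 1 fell in 5C (median 0.80) and 5 rose in 3C. Among 10 endothelial markers, Cdh5 (VE-cadherin) was at 1.06 to 1.25 CPM in DMSO, at 6.45 and 14.9 CPM in 3C and at 43.3 and 72.2 CPM in 5C, and Erg was at 0 in both DMSO libraries. Of the 9 endothelial markers tested, 7 rose and 1 fell in 5C and 5 rose and 1 fell in 3C against DMSO. The summed level of the endothelial list, 329.6 to 339.9 CPM in DMSO, 96.1 to 132 CPM in 3C and 167 to 255 CPM in 5C, was mostly Lyve1 in DMSO, and Clec4g was at or near 0 throughout. These cell types also express members of the pathway, and in bulk RNA fewer cells of a type and less RNA per cell cannot be told apart. The paper also reports mesenchymal genes such as Col1a1, Acta2 and Des in the injured hepatocytes themselves, and an isolation enriched for hepatocyte-derived cells. The stellate and fibroblast markers therefore cannot be assigned to 1 cell type here. The part of these markers in the results below was not tested.

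As background, ligands of the TGF-beta superfamily are secreted dimers that bring together type I and type II receptors. TGF-betas and activins signal mainly through Smad2 and Smad3, and BMPs through Smad1, Smad5 and Smad9, each with the shared partner Smad4, whereas Smad6, Smad7 and Bambi are inhibitors that the pathway itself induces. In the liver TGF-beta is known as a driver of fibrosis and as a brake on hepatocyte division, and BMP signals set the iron hormone hepcidin in hepatocytes.

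Against DMSO, the inhibitory genes Smad6, Smad7 and Bambi, the BMP-activated Smad9 and the targets Id1, Id2 and Id3 were higher in both cocktails, whereas the ligands divided, with 6 higher and 6 lower in 5C and 6 higher and 5 lower in 3C. In 5C against DMSO, 34 of the 50 tested genes passed the test (edgeR quasi-likelihood, adjusted p under 0.05 over all genes tested), where 28.7% of all genes did. Of these 34, 22 were higher and 12 lower, against 15.6% and 13.1% of all genes, and 17 also passed a log2 fold change of 1, 14 higher and 3 lower, where 11.7% of all genes did (7.3% higher and 4.42% lower). In 3C against DMSO, 28 genes passed, 19 higher and 9 lower, against 24.5% of all genes (12.7% higher and 11.8% lower), and 10 passed the fold limit, 7 higher and 3 lower, against 9.45% (5.83% higher and 3.62% lower). In 5C against 3C, 25 genes passed, 19 higher and 6 lower, against 12.7% of all genes (7.33% higher and 5.33% lower), and only Inhbc, higher, passed the fold limit, against 3.01% (2.16% higher and 0.852% lower). The median log2 fold change of the 50 genes was 0.29, 0.09 and 0.25 in the 3 comparisons, beside 0.00, 0.01 and -0.01 over all genes tested. The libraries of the compared groups did not overlap in 44, 39 and 41 of the 50 genes, where with 2 libraries a group this held for 63.1%, 61.3% and 58% of all genes tested. The comparisons with DMSO share their control libraries, and those of 5C share the 5C libraries.

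**Figure D1:**
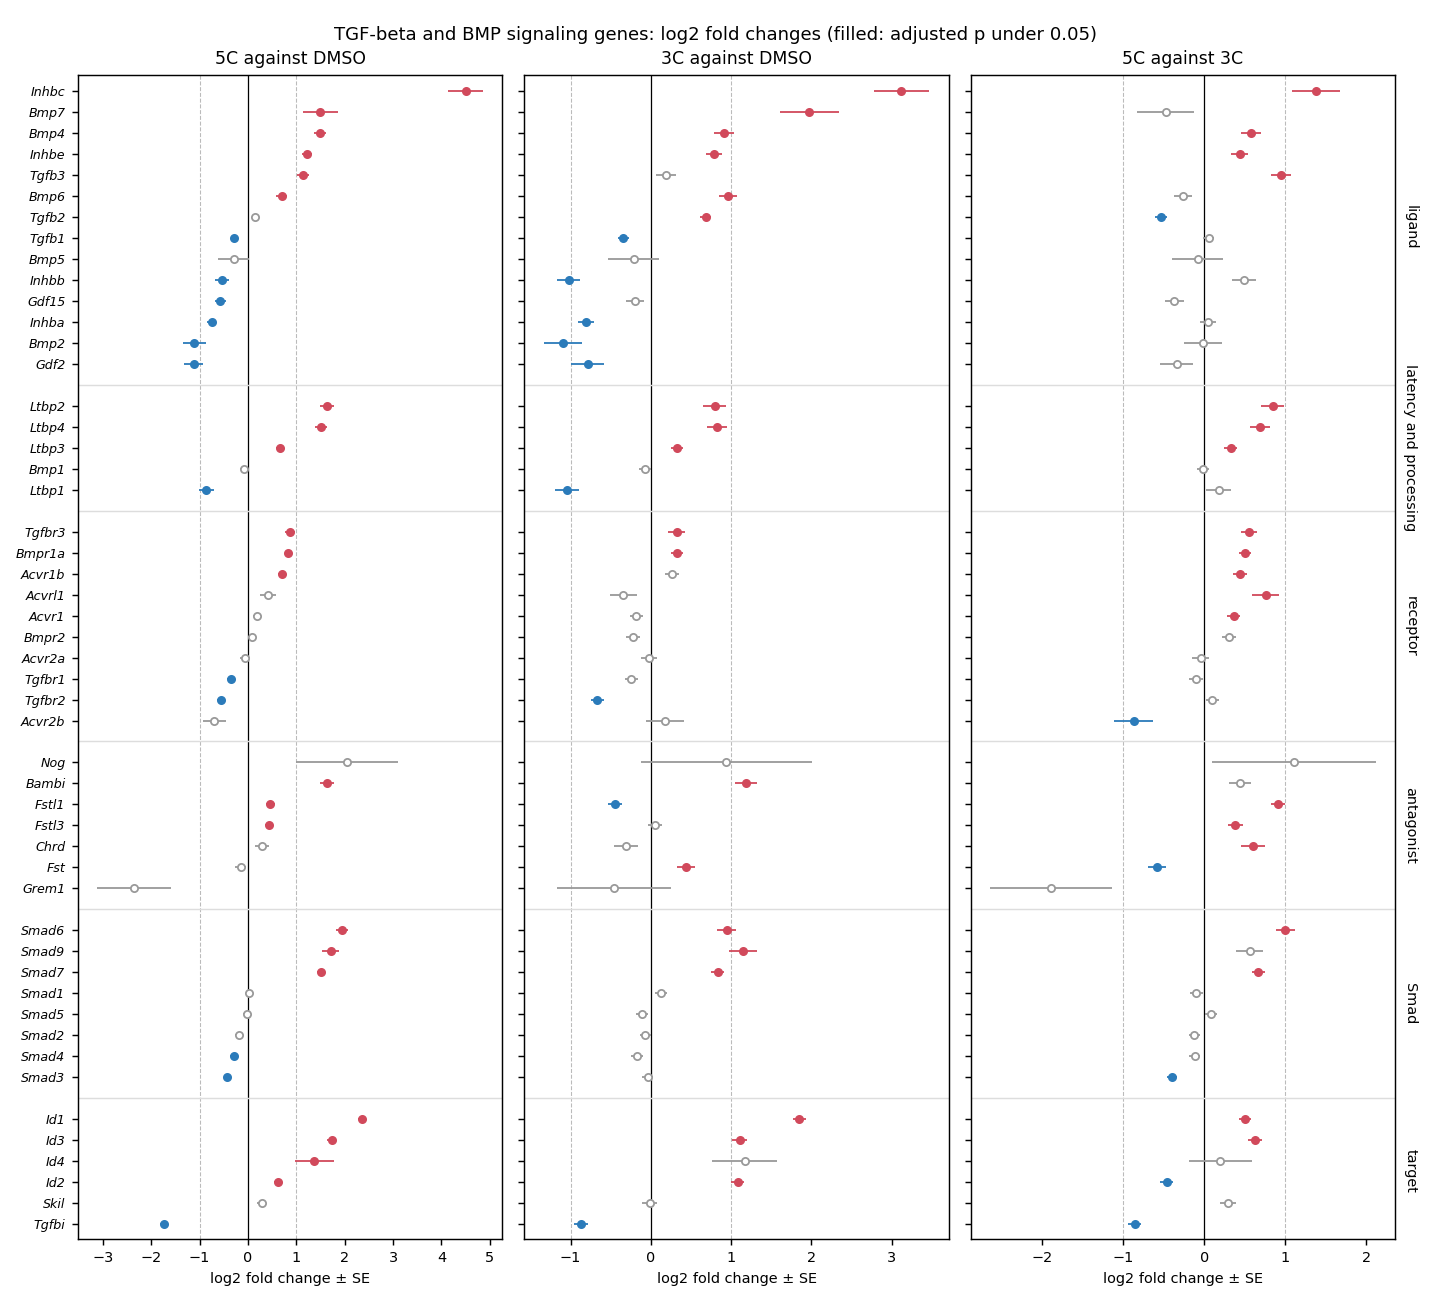
Log2 fold change of each tested gene in the 2 comparisons with DMSO and in that of the cocktails, grouped by role, with bars of 1 standard error on the log2 scale; filled points had an adjusted p under 0.05 and open points did not. The 3 panels have different horizontal scales, Inhbc lies farthest to the right in each comparison with DMSO (4.50 and 3.12), and the type I and type II receptors lie within 1 of 0 on the log2 scale in all 3 panels.

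Across the 3 groups, 12 genes were higher in 3C than DMSO and higher again in 5C than 3C, each past the test: Inhbc, Inhbe, Bmp4, Ltbp2, Ltbp3, Ltbp4, Bmpr1a, Tgfbr3, Smad6, Smad7, Id1 and Id3. In most of these 12 the step from 3C to 5C rested on single libraries, as given below, and Tgfbr3 in 3C was near the threshold. Tgfbi was the gene that fell in all 3 comparisons. In all, 17 genes were higher and 8 lower than DMSO in both cocktails, 8 passed against DMSO in 5C only and 2, Tgfb2 and Fst, in 3C only. The share of all genes that met such joint conditions was not counted. Fstl1 passed against DMSO in opposite directions, and Acvr1, Acvrl1, Acvr2b and Chrd passed between the cocktails alone. The 11 genes that passed in no comparison were Bmp5, Bmp1, Bmpr1b, Acvr2a, Bmpr2, Grem1, Nog, Smad1, Smad5, Smad2 and Skil.

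Levels of different genes were compared per length, in FPKM. The most abundant ligand was Tgfb1 in DMSO, at a mean of 59.7 FPKM, and Tgfb3 in 5C, at 100.4 FPKM. Fstl1 was the most abundant antagonist in each group, at 86.3, 63.3 and 116 FPKM in DMSO, 3C and 5C. Of the receptors Tgfbr2 was the most abundant, at 53.4, 31.8 and 37.1 FPKM, and in 5C Bmpr1a reached 36.4 FPKM. The target Id3 reached 203 FPKM in 5C, the highest mean of any of the 51 genes there, and Id1 reached 154 FPKM. Nog, Id4, Bmp7 and Grem1 stayed under 1 FPKM in each group's mean.

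**Figure D2:**
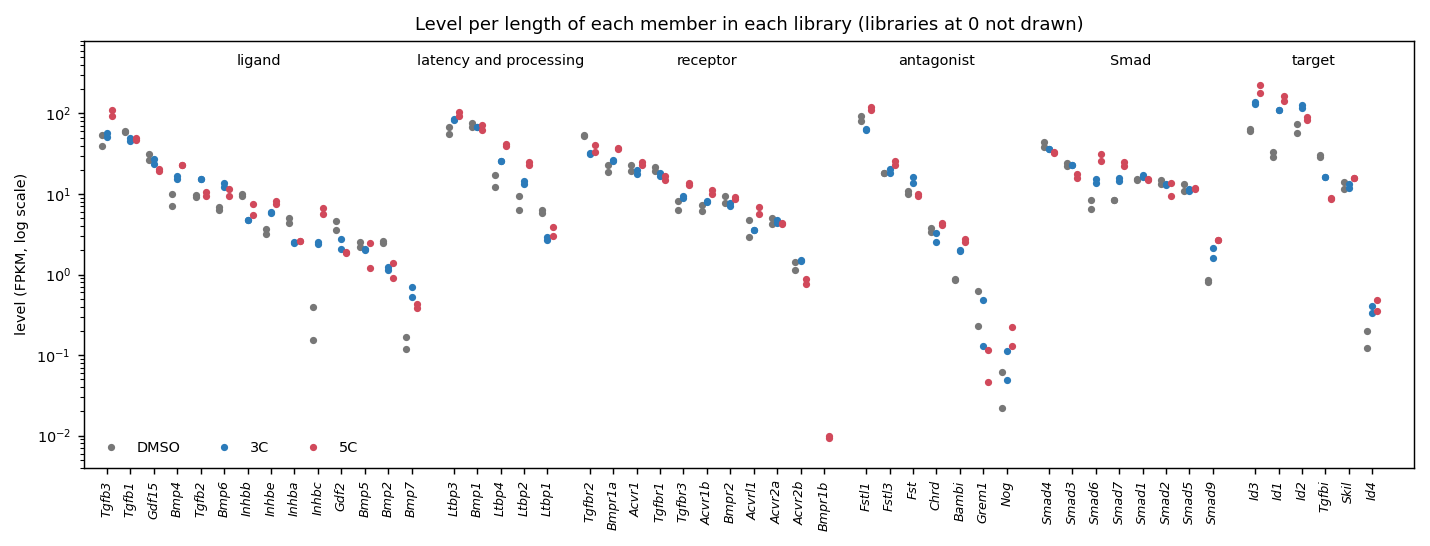
FPKM of each of the 51 genes in each of the 6 libraries on a log scale, in order of level within its role, with a point per library and libraries at 0 left out. In most genes the replicate points of a group lie close together, and the wide columns are those of low genes such as Grem1, Nog and Inhbc.

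The activin and inhibin chains divided alike in both cocktails. Inhbc and Inhbe, which encode the beta C and beta E chains made chiefly by hepatocytes, rose in both cocktails, and Inhba and Inhbb, which encode the beta A and beta B chains of activin A and activin B, fell in both. Inhbc and Inhbe are neighbours on chromosome 10 of GRCm39, at chr10:127190888-127206430 and chr10:127184726-127190280 on the reverse strand.

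Inhbc was at 0.804 and 0.334 CPM in DMSO, 5.27 and 4.88 CPM in 3C and 11.5 and 14.0 CPM in 5C. The 3 groups did not overlap and DMSO was lowest. The log2 fold change was 4.50 (SE 0.36, adjusted p = 2.15e-05) in 5C and 3.12 (SE 0.35, adjusted p = 0.000205) in 3C against DMSO, and 1.38 (SE 0.30, adjusted p = 0.0178) in 5C against 3C. The size against DMSO rests on low DMSO levels: with limma on log2(FPKM + 1) it was 2.49 in 5C and 1.44 in 3C. Inhbe, higher than Inhbc per length in every group, was at 20.9 and 18.9 CPM in DMSO, 36.3 and 34.1 CPM in 3C and 43.1 and 48.8 CPM in 5C. It rose by 1.22 (SE 0.10, adjusted p = 3.2e-05) in 5C and 0.79 (SE 0.10, adjusted p = 0.00057) in 3C on the log2 scale, and was 0.44 higher in 5C than in 3C (SE 0.10, adjusted p = 0.0238). The hepatocyte marker sums given above moved in the same direction against DMSO. Between the cocktails those sums overlapped, whereas the libraries of Inhbc and of Inhbe did not. Taken singly, however, 9 of the 10 hepatocyte markers did not overlap there either, where this held for 58% of all genes tested. Of the 10, 3 were higher and 1 lower in 5C past the test (median log2 fold change 0.35). Both gene calls between the cocktails were lost without single libraries, as given below. The part of the hepatocyte markers in them was not tested.

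Inhbb was at 45.1 and 45.0 CPM in DMSO, 22.8 and 22.5 CPM in 3C and 25.6 and 35.6 CPM in 5C. All treated libraries were under the DMSO libraries, and the 5C libraries differed from each other more than those of the other groups. Inhbb fell by 1.02 (SE 0.15, adjusted p = 0.000959) in 3C and by 0.54 (SE 0.15, adjusted p = 0.0231) in 5C on the log2 scale. The 5C call depended on single libraries: its log2 value was -0.31 (adjusted p = 0.0821) without 5C replicate 1 and -0.81 (adjusted p = 0.00159) without 5C replicate 2, and the adjusted p was 0.076 and 0.0794 without DMSO replicate 1 and 2. Inhba fell alike, from 30.0 and 30.6 CPM in DMSO to 17.5 to 18.1 CPM over the 4 treated libraries, with log2 fold changes of -0.75 in 5C and -0.80 in 3C.

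Of the BMP and GDF ligands, Bmp4, Bmp6 and Bmp7 rose against DMSO in both cocktails and Bmp2 and Gdf2 fell in both. BMP2 and BMP6 are made in liver mainly by sinusoidal endothelial cells, and Gdf2 encodes BMP9, made mainly by stellate cells. Bmp4 was at 21.6 and 16.1 CPM in DMSO, 35.2 and 37.3 CPM in 3C and 51.7 and 52.9 CPM in 5C, with no overlap between groups. It rose by 1.49 log2 units (SE 0.13, adjusted p = 3.56e-05) in 5C and 0.91 (SE 0.13, adjusted p = 0.000819) in 3C, and was 0.58 higher in 5C than in 3C (SE 0.13, adjusted p = 0.0175). Of the Bmp4 exon bases 22.5% are overlapped by the gene Gm15222, and reads of the overlapping genes cannot be told apart where counting ignores strand, which was not stated.

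Bmp7 was low, at 0.447 and 0.698 CPM in DMSO, 2.17 and 2.43 CPM in 3C and 1.62 and 1.57 CPM in 5C. The treated libraries all lay above DMSO and those of 3C were highest. Its log2 fold change was 1.97 (SE 0.37, adjusted p = 0.00407) in 3C and 1.50 (SE 0.37, adjusted p = 0.0142) in 5C. With limma on log2(FPKM + 1) it was 0.50 in 3C and 0.30 in 5C, and the 5C value did not pass. The 5C call was lost without DMSO replicate 1 (1.20 log2 units, adjusted p = 0.0684), 5C replicate 1 (1.49, adjusted p = 0.057) or 5C replicate 2 (adjusted p = 0.0532). Bmp6 rose by 0.96 log2 units in 3C and 0.70 in 5C, from 24.3 and 27.7 CPM in DMSO to 55.4 and 48.2 CPM in 3C and 45.0 and 38.4 CPM in 5C, and passed no test between the cocktails (adjusted p = 0.194).

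Bmp2 was at 9.46 and 10.5 CPM in DMSO, 4.64 and 4.88 CPM in 3C and 3.55 and 5.53 CPM in 5C. The DMSO libraries were above all others, and 3C and 5C overlapped. It fell by 1.11 log2 units in 5C (SE 0.24, adjusted p = 0.00724) and by 1.10 in 3C (SE 0.24, adjusted p = 0.00872), and the 3C value was -1.06 with an adjusted p of 0.0638 without 3C replicate 1. Gdf2 was at 11.6 and 15.7 CPM in DMSO, 7.10 and 9.10 CPM in 3C and 5.99 and 6.35 CPM in 5C. It fell by 1.13 log2 units in 5C (SE 0.20, adjusted p = 0.00299) and by 0.79 in 3C (SE 0.20, adjusted p = 0.0205), a 3C call that was lost without DMSO replicate 2 (-0.53, adjusted p = 0.135) or 3C replicate 1 (-0.62, adjusted p = 0.159). Gdf15, a stress-induced hormone, fell by 0.57 log2 units in 5C only. Bmp5 passed no test, with 5.05 to 10.7 CPM over the 6 libraries, and 46.6% of its exon bases are overlapped by Gm26903.

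Each of the 3 TGF-beta ligands had a pattern of its own. Tgfb3 was at 196 and 152 CPM in DMSO, 216 and 189 CPM in 3C and 403 and 350.1 CPM in 5C. DMSO and 3C overlapped and 5C lay above both. Its log2 fold change was 1.14 in 5C against DMSO (SE 0.12, adjusted p = 0.000173), 0.94 in 5C against 3C (SE 0.12, adjusted p = 0.00202) and 0.19 in 3C against DMSO (SE 0.12, adjusted p = 0.318). Tgfb2, in contrast, was highest in 3C, at 79.2 and 80.5 CPM, against 49.4 and 47.9 CPM in DMSO and 55.3 and 51.2 CPM in 5C. It rose by 0.68 log2 units in 3C against DMSO and was 0.54 lower in 5C than in 3C. Tgfb1, the main fibrogenic isoform, was at 138 and 148 CPM in DMSO and at 111 to 119 CPM over the treated libraries, a log2 fold change of -0.29 in 5C and -0.34 in 3C. The Tgfb1 call in 5C was lost without DMSO replicate 2 (-0.22 log2 units, adjusted p = 0.069) or either 5C library (-0.30 without replicate 1, adjusted p = 0.0598, and -0.28 without replicate 2, adjusted p = 0.0727), and that in 3C without 3C replicate 1 (-0.29, adjusted p = 0.108).

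**Figure D3:**
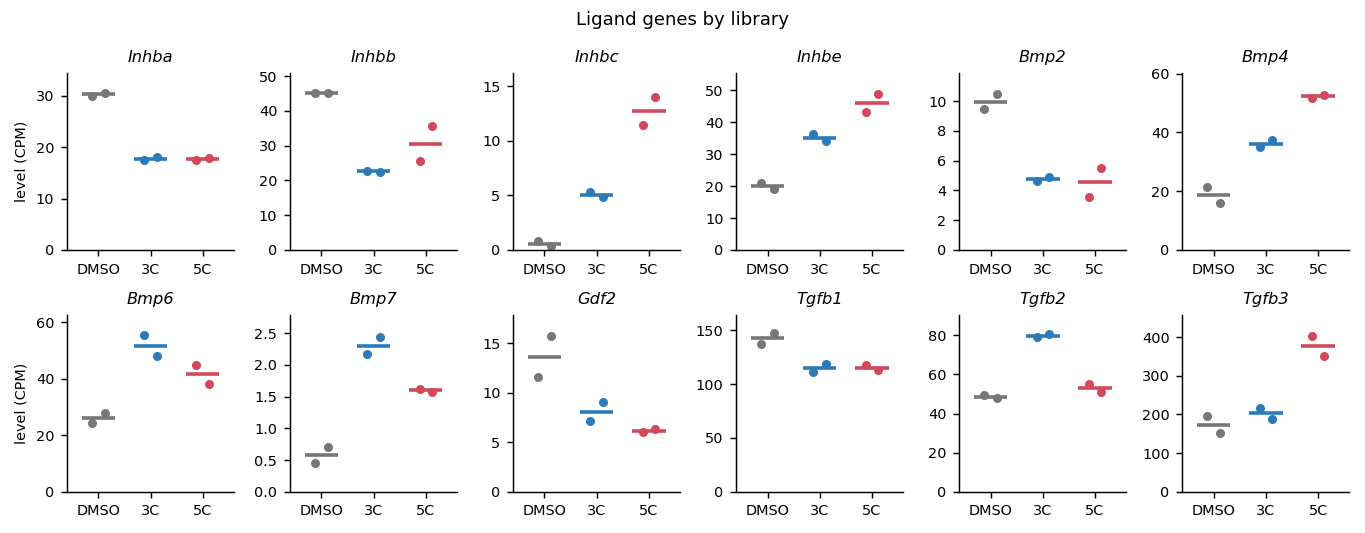
CPM of 12 ligand genes in each library, with a point per library and a bar at the group's mean, on vertical axes that start at 0 and differ between panels. Inhba, Inhbb, Bmp2, Gdf2 and Tgfb1 have their DMSO points above all treated points, Inhbc, Inhbe, Bmp4, Bmp6 and Bmp7 have them below, Tgfb2 stands highest in 3C and Tgfb3 in 5C.

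The 4 genes of the latent TGF-beta binding protein family also divided. Ltbp2, Ltbp3 and Ltbp4 rose in each of the 3 comparisons and Ltbp1 fell against DMSO in both cocktails. Ltbp2 was at 67.1 and 48.1 CPM in DMSO, 107 and 97.2 CPM in 3C and 184 and 169 CPM in 5C, and Ltbp4 was at 93.0 and 69, 149 and 145, and 219 and 237 CPM in the same order. In neither gene did any groups overlap. Ltbp2 rose by 1.64 log2 units in 5C (SE 0.14, adjusted p = 0.000106) and 0.79 in 3C (SE 0.14, adjusted p = 0.0049), and was 0.84 higher in 5C than in 3C. Ltbp4 rose by 1.52 log2 units in 5C (SE 0.12, adjusted p = 4.24e-05) and 0.83 in 3C (SE 0.12, adjusted p = 0.0015), and was 0.69 higher in 5C than in 3C. Ltbp3, the most abundant of the 4 per length in each group, rose by 0.65 log2 units in 5C and 0.33 in 3C, and the 3C call was lost without 3C replicate 1 (0.34, adjusted p = 0.0756) or 3C replicate 2 (0.32, adjusted p = 0.0915). Ltbp1 was at 33.5 and 37.2 CPM in DMSO, 17 and 18.1 CPM in 3C and 16.3 and 22.1 CPM in 5C. It fell by 1.04 log2 units in 3C (SE 0.15, adjusted p = 0.00111) and by 0.86 in 5C (SE 0.15, adjusted p = 0.00274), with 3C and 5C overlapping. Bmp1, a matrix protease that cleaves procollagen, stood at 268 to 316 CPM over all libraries and passed no test.

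No receptor gene passed a log2 fold change of 1 in any comparison. In 5C against DMSO, 3 of the 10 tested receptors rose and 2 fell, where 28.7% of all genes passed, and in 3C against DMSO 2 rose and 1 fell, where 24.5% passed. Between the cocktails 5 were higher and 1 lower in 5C, where 12.7% passed, and all of these calls but that of Bmpr1a rested on single libraries. Tgfbr2, the type II receptor for TGF-beta, fell by 0.57 log2 units in 5C and 0.67 in 3C, from 410.0 and 424 CPM in DMSO to 260.2 to 295 CPM over the treated libraries. Its type I partner Tgfbr1 fell by 0.35 log2 units in 5C only, a call lost without DMSO replicate 1 (-0.31, adjusted p = 0.0608) or 5C replicate 1 (-0.24, adjusted p = 0.0897). The co-receptor Tgfbr3, betaglycan, moved the other way, by 0.88 log2 units in 5C and 0.32 in 3C. The 3C call of Tgfbr3 had an adjusted p of 0.0494 and was lost without each library but DMSO replicate 1, down to 0.20 log2 units (adjusted p = 0.207) without DMSO replicate 2.

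The BMP type I receptor Bmpr1a rose by 0.84 log2 units in 5C and 0.33 in 3C, from 143 and 124 CPM in DMSO to 169.9 and 174 CPM in 3C and 235 and 236 CPM in 5C. The groups did not overlap. The 3C call was lost without 3C replicate 1 (0.35 log2 units, adjusted p = 0.0733) or 3C replicate 2 (0.31, adjusted p = 0.106). The activin type I receptor Acvr1b rose by 0.70 log2 units in 5C. Acvrl1, the receptor of endothelial cells for BMP9 and BMP10, passed only between the cocktails, 0.76 log2 units higher in 5C than in 3C, at 10.8 and 11.2 CPM in DMSO, 8.98 and 8.78 CPM in 3C and 12.5 and 16.5 CPM in 5C. The part of the endothelial markers given above in the levels of Acvrl1 was not tested. Acvr1 was 0.36 log2 units higher and the type II receptor Acvr2b 0.87 lower in 5C than in 3C. Acvr2b was low, at 2.14 to 4.74 CPM, and 13.1% of its exon bases are overlapped by another gene. The type II receptors Bmpr2, at 104 to 133 CPM, and Acvr2a, at 26.2 to 30.5 CPM, passed no test, and 30.5% of Acvr2a exon bases are overlapped by Orc4.

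Among the antagonists, Bambi, a pseudoreceptor with no kinase domain that is itself induced by BMP and TGF-beta, was at 4.71 and 5.11 CPM in DMSO, 11.4 and 11.5 CPM in 3C and 15.3 and 14.7 CPM in 5C. The groups did not overlap. Its log2 fold change was 1.63 in 5C (SE 0.14, adjusted p = 3.59e-05) and 1.19 in 3C (SE 0.14, adjusted p = 0.000291), and 0.44 between the cocktails (SE 0.14, adjusted p = 0.0719). Fstl1, a secreted glycoprotein of the follistatin family that binds BMP4, moved in opposite directions, by 0.46 log2 units in 5C and -0.44 in 3C against DMSO. It was at 374 and 338 CPM in DMSO, 267 and 268 CPM in 3C and 453 and 516 CPM in 5C, a difference of 0.91 log2 units between the cocktails (SE 0.09, adjusted p = 0.000466). The summed stellate and fibroblast markers given above were also lowest in 3C and highest in 5C, although more of these markers rose than fell in 3C.

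Of the activin-binding follistatins, Fst rose by 0.43 log2 units in 3C and was 0.58 lower in 5C than in 3C, and Fstl3 rose by 0.44 in 5C and was 0.39 higher there than in 3C. The Fst call against DMSO was lost without DMSO replicate 1 (0.33 log2 units, adjusted p = 0.0958) or 3C replicate 2 (0.33, adjusted p = 0.184). In Fstl3, 47.1% of exon bases are overlapped by Prss57. Chordin (Chrd), a BMP-binding antagonist, was 0.60 log2 units higher in 5C than in 3C and passed no test against DMSO, and 14.2% of its exon bases are overlapped by Thpo. Grem1 and Nog, which encode the BMP antagonists gremlin and noggin, were too low and too uneven to pass, at 0.231 to 2.81 CPM and 0.0455 to 0.433 CPM over the 6 libraries.

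Of the 8 Smads, the inhibitory Smad6 and Smad7 and the BMP-activated Smad9 rose against DMSO in both cocktails. Smad6, which acts chiefly on BMP receptors, was at 26.9 and 21.9 CPM in DMSO, 50.9 and 44.9 CPM in 3C and 101 and 84.3 CPM in 5C. Smad7, which acts on TGF-beta and BMP receptors alike, was at 38.2 and 40.3 CPM in DMSO, 76.0 and 67.4 CPM in 3C and 113 and 107 CPM in 5C. In both genes the groups rose in the order DMSO, 3C, 5C without overlap. Smad6 rose by 1.94 log2 units in 5C (SE 0.12, adjusted p = 5.02e-06) and 0.94 in 3C (SE 0.12, adjusted p = 0.000414), with 1.00 between the cocktails (SE 0.12, adjusted p = 0.00109). Smad7 rose by 1.51 log2 units in 5C (SE 0.08, adjusted p = 2.38e-06) and 0.84 in 3C (SE 0.08, adjusted p = 9.11e-05), with 0.67 between the cocktails (SE 0.08, adjusted p = 0.00119).

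The BMP-activated Smad9 was low, at 4.73 and 5.17 CPM in DMSO, 12.8 and 9.63 CPM in 3C and 15.8 and 16.2 CPM in 5C. It rose by 1.71 log2 units in 5C (SE 0.17, adjusted p = 8.88e-05) and 1.14 in 3C (SE 0.17, adjusted p = 0.00117), and its difference of 0.56 between the cocktails did not pass (adjusted p = 0.0608). The more abundant BMP-activated Smads, Smad1 at 49.6 to 58.3 CPM and Smad5 at 77.8 to 89.7 CPM, passed no test. Of the TGF-beta-activated Smads, Smad3 fell by 0.44 log2 units in 5C against DMSO and by 0.40 against 3C, at 131 and 128 CPM in DMSO, 129 and 129 CPM in 3C and 98.4 and 90.8 CPM in 5C. Smad2, at 58.2 to 68.8 CPM, passed no test. The common partner Smad4 fell by 0.29 log2 units in 5C, a call lost without DMSO replicate 1 (-0.24, adjusted p = 0.0576) or 5C replicate 1 (-0.24, adjusted p = 0.0861).

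Of the 6 target genes, the Id genes rose and Tgfbi fell. The Id genes encode helix-loop-helix proteins without a DNA-binding domain that hold other transcription factors inactive, and are direct targets of BMP Smads in many cells. All 4 rose in 5C against DMSO, and 3 of the 4 rose in 3C. Id1, at chr2:152566218-152579544 of GRCm39, was at 33.3 and 30.5 CPM in DMSO, 119 and 117 CPM in 3C and 172 and 149 CPM in 5C. Id3, at chr4:135870808-135873066, was at 85.6 and 85.9 CPM in DMSO, 196 and 182 CPM in 3C and 309.7 and 254 CPM in 5C. In both, DMSO was lowest and 5C highest, with no overlap. Id1 rose by 2.35 log2 units in 5C (SE 0.08, adjusted p = 3.03e-07) and 1.85 in 3C (SE 0.08, adjusted p = 1.71e-06), and was 0.50 higher in 5C than in 3C (SE 0.08, adjusted p = 0.00366). Id3 rose by 1.73 log2 units in 5C (SE 0.09, adjusted p = 2.28e-06) and 1.11 in 3C (SE 0.09, adjusted p = 3.77e-05), and was 0.63 higher in 5C than in 3C (SE 0.09, adjusted p = 0.00287).

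Id2 had another order. It was at 92.2 and 106 CPM in DMSO, 213 and 216 CPM in 3C and 149 and 151 CPM in 5C, so that 3C was highest and the groups did not overlap. It rose by 1.08 log2 units in 3C (SE 0.08, adjusted p = 2.4e-05) and 0.62 in 5C (SE 0.08, adjusted p = 0.00049), and was 0.46 lower in 5C than in 3C (SE 0.08, adjusted p = 0.00679). With limma on FPKM the 5C value was lower, 0.38 on log2(FPKM + 1), which did not pass (adjusted p = 0.0557), and 0.39 on log2(FPKM + 0.1), which did (adjusted p = 0.0486). The difference between the cocktails was lost without 3C replicate 1 (-0.47 log2 units, adjusted p = 0.0545) or 3C replicate 2 (-0.45, adjusted p = 0.0636). Id4 was near the detection limit, at 0.506 and 0.88 CPM in DMSO, 1.80 and 1.41 CPM in 3C and 2.01 and 1.55 CPM in 5C. Its log2 fold change was 1.37 in 5C (SE 0.41, adjusted p = 0.0329) and 1.17 in 3C (SE 0.41, adjusted p = 0.0679), and the 5C call was lost without each library but DMSO replicate 2, with values of 1.02 without DMSO replicate 1 (adjusted p = 0.144) to 1.54 without 5C replicate 2 (adjusted p = 0.0659). Of the Id2 and Id4 exon bases 13.4% and 10.3% are overlapped by the genes Gm36287 and Gm49291.

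Tgfbi, which encodes a matrix protein named for its induction by TGF-beta, lies at chr13:56757336-56787375 of GRCm39. It was at 85.0 and 92.1 CPM in DMSO, 50.0 and 49.2 CPM in 3C and 25.6 and 27.1 CPM in 5C. It fell in the order DMSO, 3C, 5C without overlap, by 1.73 log2 units in 5C (SE 0.08, adjusted p = 1.3e-06) and by 0.87 in 3C against DMSO (SE 0.08, adjusted p = 7.92e-05), and by 0.86 in 5C against 3C (SE 0.08, adjusted p = 0.000481). Macrophages express Tgfbi, and the summed macrophage markers given above fell in the same order, but a link between them was not tested. Skil, a Smad corepressor that TGF-beta induces, was at 84.0 to 116 CPM and passed no test.

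**Figure D4:**
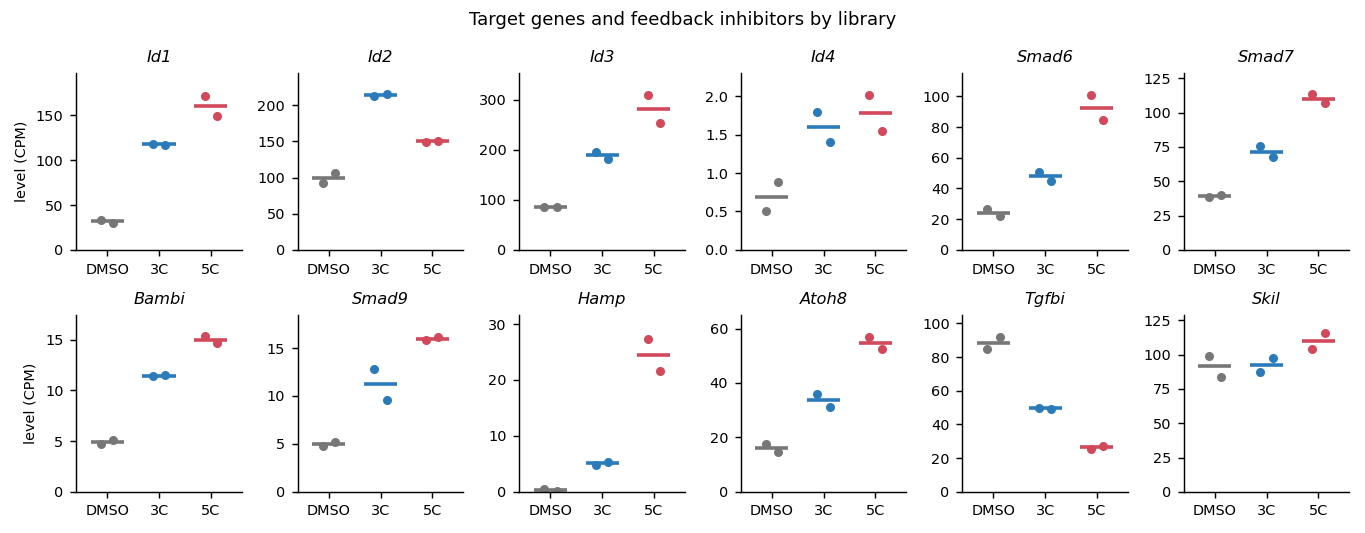
CPM of target genes, inhibitory Smads, Bambi and Smad9, with Hamp and Atoh8 of the wider pathway, in each library, with a point per library and a bar at the group's mean, on vertical axes that start at 0 and differ between panels. Id1, Id3, Smad6, Smad7, Bambi, Smad9, Hamp and Atoh8 step up from DMSO through 3C to 5C, Id2 is highest in 3C, Tgfbi steps down, and the Skil points of DMSO and 3C overlap.

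Promoter letters are shown for Id2, Id3, Smad6 and Smad9, which rose against DMSO in both cocktails, and for Tgfbi, which fell in both. RefSeq gave 46 promoters for 37 of the 51 genes on the GRCm38.p6 build, and the 250 bases before each start were searched on both strands for GGCGCC, the GC box of BMP response elements, CAGAC, the Smad binding element, and TGACG, the left part of a cyclic AMP response element. GGCGCC was in 12 of the 46 promoters, against 9.59% of 32841 promoters of the same length, CAGAC was in 22, against 42.2%, and TGACG was in 6, against 17.8%. Overlapping Ltbp4 windows shared a single GGCGCC match. GGCGCC holds only G and C, and the shares were not adjusted for base content. The promoters below are written 5′ to 3′ on the strand of the gene, with matches in capitals. They are of Id2 at chr12:25096093-25096342 on the reverse strand, Id3 at chr4:136143572-136143821 on the forward strand, Smad6 at chr9:64022060-64022309 on the reverse strand, Smad9 at chr3:54755332-54755581 on the forward strand and Tgfbi at chr13:56609336-56609585 on the forward strand.
Id2: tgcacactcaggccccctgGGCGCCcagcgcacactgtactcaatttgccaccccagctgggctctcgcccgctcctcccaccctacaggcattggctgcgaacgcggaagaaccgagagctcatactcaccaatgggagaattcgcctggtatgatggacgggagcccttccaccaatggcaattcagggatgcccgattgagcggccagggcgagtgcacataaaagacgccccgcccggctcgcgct
Id3: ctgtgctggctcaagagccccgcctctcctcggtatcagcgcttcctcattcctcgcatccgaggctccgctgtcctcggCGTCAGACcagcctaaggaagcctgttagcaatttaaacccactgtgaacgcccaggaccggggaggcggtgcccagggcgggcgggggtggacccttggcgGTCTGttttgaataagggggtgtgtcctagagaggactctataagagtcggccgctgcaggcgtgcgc
Smad6: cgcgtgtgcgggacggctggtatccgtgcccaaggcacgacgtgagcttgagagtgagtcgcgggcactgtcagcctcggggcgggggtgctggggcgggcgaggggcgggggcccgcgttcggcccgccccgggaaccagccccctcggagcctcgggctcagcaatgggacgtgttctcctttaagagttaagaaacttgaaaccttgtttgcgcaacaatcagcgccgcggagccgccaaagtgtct
Smad9: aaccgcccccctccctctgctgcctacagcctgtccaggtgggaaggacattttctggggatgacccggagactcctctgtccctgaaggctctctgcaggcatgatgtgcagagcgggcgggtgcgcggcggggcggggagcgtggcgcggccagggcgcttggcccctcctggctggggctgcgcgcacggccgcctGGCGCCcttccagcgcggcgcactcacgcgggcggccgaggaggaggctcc
Tgfbi: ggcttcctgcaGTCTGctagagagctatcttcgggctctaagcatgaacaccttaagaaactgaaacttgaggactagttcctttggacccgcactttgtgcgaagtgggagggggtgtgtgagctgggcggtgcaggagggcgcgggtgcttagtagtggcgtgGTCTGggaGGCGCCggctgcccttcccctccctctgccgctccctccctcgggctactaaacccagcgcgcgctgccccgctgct
In these windows GGCGCC began 231 bases before the Id2 start, 51 before that of Smad9 and 77 before that of Tgfbi. CAGAC or its complement began 167 and 68 bases before the Id3 start and 239 and 85 before that of Tgfbi. In Id3 the match to TGACG, 170 bases before the start, shares letters with the first CAGAC match. Smad6 held none of the 3 motifs in its window. These matches are descriptions of letters and were not tested as binding sites.

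The difference between 5C and 3C rested more on single libraries than those against DMSO. Of the 25 genes that passed, 9 passed with each library left out in turn: Bmpr1a, Fstl1, Id1, Id3, Smad6, Smad7, Tgfb2, Tgfb3 and Tgfbi. Without 3C replicate 1, 13 of the 25 calls were lost (Inhbc, Inhbe, Bmp4, Ltbp3, Ltbp4, Acvr1, Acvr1b, Acvrl1, Acvr2b, Fstl3, Chrd, Smad3 and Id2), at absolute log2 fold changes of 0.30 to 1.44. Without 3C replicate 2, 15 were lost, the same genes without Acvr1 and with Ltbp2, Tgfbr3 and Fst, at 0.34 to 1.33 log2 units. Without 5C replicate 1, 10 were lost (Inhbc, Bmp4, Ltbp2, Ltbp3, Acvr1, Acvr1b, Acvr2b, Fst, Fstl3 and Chrd), at 0.31 to 1.53 log2 units. Without 5C replicate 2, 12 were lost (Inhbc, Inhbe, Bmp4, Ltbp2, Ltbp3, Ltbp4, Acvr1, Acvrl1, Acvr2b, Tgfbr3, Fstl3 and Chrd), at 0.32 to 1.20 log2 units, and without DMSO replicate 1 Acvr2b was lost (-0.87, adjusted p = 0.0517). No gene changed direction.

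A wider list of 80 further genes of these pathways, 69 of them tested, was counted in the same way. In 5C against DMSO 23 rose and 10 fell, in 3C against DMSO 13 rose and 15 fell, and between the cocktails 18 were higher and 4 lower in 5C. The shares of all genes given above are the background for these counts. Among 15 further target genes tested, 7 rose and 3 fell in 5C and 3 rose and 4 fell in 3C. Hamp, the gene of hepcidin and a classical BMP target of hepatocytes, was at 0.581 and 0.167 CPM in DMSO, 4.83 and 5.35 CPM in 3C and 27.4 and 21.6 CPM in 5C, with log2 fold changes of 6.04 (SE 0.43, adjusted p = 4.79e-05) in 5C and 3.73 (SE 0.41, adjusted p = 0.00057) in 3C. Its second DMSO value lies under the floor of 3 fragments, 0.182 CPM in that library, and 8.72% of its transcript bases are shared with Hamp2. Atoh8, a transcription factor gene induced by BMP6 and iron, rose by 1.78 log2 units (adjusted p = 5.82e-06) in 5C and 1.03 (adjusted p = 0.00018) in 3C.

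Among the 14 further ligands tested, 3 rose and 3 fell in 5C and 1 rose and 4 fell in 3C. Bmp10, like Gdf2 a circulating ligand of Acvrl1, was at 4.35 and 5.14 CPM in DMSO, 1.33 and 1.64 CPM in 3C and 0.623 and 0.375 CPM in 5C. It fell by 3.23 log2 units in 5C (SE 0.35, adjusted p = 0.000146) and by 1.71 in 3C (SE 0.33, adjusted p = 0.00462). In 5C against 3C the log2 fold change of Bmp10 was -1.52 (adjusted p = 0.0202), whereas that of Gdf2, -0.34, did not pass (adjusted p = 0.366). Gdf3 fell by 1.34 log2 units in 5C and 1.24 in 3C. Of 13 further activation factors and receptors tested, 6 rose and 1 fell in 5C and 5 rose and 3 fell in 3C. Nrros, which holds latent TGF-beta on macrophages and microglia, fell by 1.59 log2 units in 5C and 1.17 in 3C. Itgb6, the chain of an integrin that activates latent TGF-beta on epithelial cells, rose by 2.35 log2 units in 3C and 1.53 in 5C from 0.476 and 0.819 CPM in DMSO.

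Of 11 further antagonists tested, 5 rose and none fell in 5C, and 2 rose and 3 fell in 3C. Fmod, the matrix proteoglycan fibromodulin that binds TGF-beta, rose by 2.76 log2 units in 5C and 2.28 in 3C. Bmper, a secreted BMP-binding protein, was at 80.5 and 72.4 CPM in DMSO, 21.2 and 23.1 CPM in 3C and 70.9 and 68.1 CPM in 5C. It fell by 1.82 log2 units in 3C (SE 0.08, adjusted p = 1.98e-06) and was 1.70 higher in 5C than in 3C, and passed no test in 5C against DMSO (adjusted p = 0.331). Among 16 further intracellular regulators, 2 rose and 3 fell in 5C and 2 rose and 1 fell in 3C. Pmepa1, a TGF-beta-induced inhibitor of Smad activation, rose by 1.00 log2 units in 5C and 0.62 in 3C, and Nedd4l, a ubiquitin ligase that acts on activated Smad2 and Smad3, rose by 0.65 in 5C and 0.98 in 3C.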

How the data were processed

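Libraries were made from total RNA with the NEBNext Ultra RNA kit, and the sources do not state whether strand was used in counting. The authors deposited, per gene of GRCm39, a table of estimated counts, and a table of FPKM. The submitters' processing notes name Subread, featureCounts and DESeq2 without versions. The deposited counts show an excess at 4, 8 and 12, so a fragment was taken as 4 units and the floor of 3 fragments as 12 units (0.173 to 0.182 CPM), an assumption that covers counting error only.

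The 51 genes and all lists were chosen with earlier results of these data known. Counts were used as deposited in edgeR 4.0.16 (R 4.3.3; TMM, filterByExpr, robust quasi-likelihood F test, 1 coefficient per group, 6 libraries, 3 residual degrees of freedom), with Benjamini-Hochberg adjustment over the 19135 genes tested. SE is the log2 fold change divided by the root of F. The common biological coefficient of variation was 18.4%. Values in every library, with SE and adjusted p, are given for genes of at least 1 CPM on average that passed the test with a log2 fold change beyond 1 in any comparison. Of each wider list, at most the 2 genes with the largest change per comparison are named. Coordinates and overlaps are of GENCODE on GRCm39 and promoters of RefSeq on GRCm38.p6. Alternatives were DESeq2 1.42.0, limma 3.58.1 on log2(FPKM + 1) and log2(FPKM + 0.1), other scalings, filters and thresholds, 2-group fits, a replicate block and leaving out each library. The values of a gene of the wider list are not reported here.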

Additional observations from a re-analysis of the deposited data

Results flagged for a closer look

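Fstl1, the follistatin family member described above, was picked out because 5C and 3C moved it in opposite directions against DMSO, each past the test, and the difference between the cocktails also passed (0.91 on the log2 scale, adjusted p = 0.000466 by edgeR). Of the wider list, Gdf6 and Lox also met this condition. Gdf6, a BMP-type ligand gene, was at 105 and 97.8 CPM in DMSO, 53.8 and 53.9 CPM in 3C and 138 and 152 CPM in 5C, with log2 fold changes of 0.54 in 5C and -0.94 in 3C and a difference of 1.49 (adjusted p = 7.39e-05). Lox, the gene of the collagen cross-linking enzyme lysyl oxidase and a TGF-beta target, had log2 fold changes of 0.56 in 5C and -0.51 in 3C and a difference of 1.07 (adjusted p = 0.000377). In each of these genes both 3C libraries lay below both DMSO libraries and both 5C libraries above them. The summed stellate and fibroblast markers had the same order of groups, but of these 12 genes 6 rose and 4 fell in 3C against DMSO, with a median log2 fold change of 0.50, and their part in these differences was not tested. No group had the 4 libraries that a test for a library standing apart needs.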

How the results depend on the processing

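Id2, listed as higher in both cocktails, lost its 5C call with limma on log2(FPKM + 1) (0.38, adjusted p = 0.0557). No call changed direction under any of the 18 alternatives. Of the calls that passed, 27 of 34 in 5C against DMSO, 21 of 28 in 3C against DMSO and 9 of 25 in 5C against 3C also passed under all 16 alternatives that kept the threshold. With an absolute log2 fold change above 1 added, the counts were 17, 10 and 1. In 5C against 3C the count was 16 at an adjusted p under 0.01, and 15 with limma on log2(FPKM + 1) and also with log2(FPKM + 0.1). Leaving out each library gave 29 to 34 in 5C against DMSO, 22 to 30 in 3C against DMSO and 10 to 27 in 5C against 3C, the lowest without 3C replicate 2, then 12 without 3C replicate 1, 13 without 5C replicate 2 and 16 without 5C replicate 1. A group left with 1 library was assumed to vary like the others.

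The groups share replicate numbers, but the deviations of same-numbered libraries from their group means had correlations of -0.0306, 0.000683 and 0.0161, so the numbers were not taken as pairs. With the replicate block the counts were 34, 27 and 25. Depth was nearly equal between libraries and limited genes near the floor, such as Bmpr1b, Nog and Id4. With 2 libraries per group and 3 residual degrees of freedom, small changes in receptors and Smads may pass or miss the threshold by the spread of a single library, and a gene that did not pass is not shown to be equal.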
